A study of Mus musculus with 3 samples.

Results

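The 34 genes described here encode proteins that copy DNA in S phase or carry out mitosis, and they were chosen by name. The list holds 15 S phase members, from Mcm2 to Ccne2, and 19 G2/M members, from Mki67 to Tacc3. Each symbol matched 1 of the 32285 genes in the 3 matrices, and all 34 passed the filter on low counts, as did 14080 genes in all. Expression was measured by droplet single-cell RNA-seq in mouse blastoids, which are aggregates of stem cells that resemble the blastocyst, and the study asked about the transcriptomes of their lineages. All 3 libraries came from E14 embryonic stem cells that had been cultured with 1000 U/mL LIF and 10 µM T0901317, an agonist of the liver X receptors, of which Nr1h2 encodes 1. Cells were seeded at 5 per microwell with 12.5 ng/mL rhFGF4, 0.5 µg/mL heparin, 3 µM CHIR99021 and, on the first day, 2 µM Y-27632. Afterwards 5 ng/mL BMP4 and 0.5 µM A83-01 replaced Y-27632, and blastoids were picked by hand on day 5. The libraries are titled NrESC_Type_I, NrESC_Type_II and NrESC_Type_III, here Types I, II and III, with 1 library each. The labels do not say how the types differ.

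Cells prepare for replication in G1, when ORC, Cdc6 and Cdt1 load the MCM helicase onto origins. In S phase the helicase is activated by Cdc45 and GINS, and polymerases held by the Pcna clamp copy both strands. Many of these genes are transcribed by E2F factors around the G1/S transition. The mitotic genes are transcribed later, in G2 and mitosis, through CHR elements and CCAAT boxes bound by the MuvB complex with B-Myb or FoxM1 and by NF-Y. Mouse embryonic stem cells and the epiblast cycle fast with a short G1, and trophectoderm can leave the mitotic cycle to form polyploid giant cells.

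Of the 18388 barcodes in the files, 3669 had 10000 or more UMIs with no more than 20% of them mitochondrial, and 3329 of these fell into 4 states by the CPM of marker genes (counts scaled to the same total). Visceral endoderm was taken first (Ttr, Rbp4, Apoa1 and Apoa2 at 1000 CPM or more in sum), then early primitive endoderm, here early PrE (Gata6, Sox17 and Gata4 at 100 or more). Trophectoderm, here TE, followed (Krt8, Krt18 and Krt19 at 800 or more), and epiblast came last (Pou5f1 at 150 or more). None of the 34 genes takes part in this rule. Epiblast held 1054 barcodes (351, 582 and 121 in Types I, II and III), early PrE 692 (271, 376 and 45), visceral endoderm 1025 (443, 563 and 19) and TE 558 (208, 278 and 72). Median depth ran from 37918 to 92031 UMIs per barcode over the 12 combinations of library and state. Of the markers outside the rule, Nanog was at 133 to 202 CPM in the epiblast sums and at no more than 14.6 elsewhere. The summed marker lists include the rule's own genes, so their contrasts follow in part from the sorting. The 8 epiblast markers summed to between 1833 and 2435 CPM in epiblast and to at most 325 in any other sum. The 8 visceral endoderm markers summed to between 7161 and 8656 CPM in visceral endoderm and to at most 1577 elsewhere. Outside the rule, Apob (822 to 1140 CPM), Amn (605 to 659) and Afp (55.2 to 77.0) were higher in the visceral endoderm of Types I and II than in early PrE. Cubn went the other way, at 532 to 629 CPM against 637 to 944 in early PrE. The 8 early PrE markers summed to between 4358 and 4932 CPM in early PrE and to between 3900 and 4302 in visceral endoderm. Against the visceral endoderm of Types I and II, Lama1 (443 to 457 against 147 to 150 CPM) and Col4a1 (2238 to 2904 against 2020 to 2089) were higher in early PrE. Dab2 (1024 to 1084 against 1214 to 1306) and Foxa2 (41.2 to 45.8 against 46.8 to 52.5) were lower, and Pdgfra overlapped. TE markers summed to between 4755 and 7084 CPM in TE, and to between 1098 and 1858 CPM in the endoderm states, where 380 of the 443 visceral endoderm barcodes of Type I also passed the keratin limit. TE markers outside the rule did not all follow the label. Gata2 was at 241 to 329 CPM in TE and at no more than 51.0 elsewhere, and Gata3 and Tfap2c were also highest in TE. Cdx2 was at 13.8 to 18.9 CPM in the visceral endoderm of Types I and II and at 4.82 to 12.5 in TE. Elf5 was at 0 in the early PrE sums of all 3 libraries. Its TE levels of at most 1.01 CPM are too low to tell the states apart. The giant cell hormone gene Prl3d1 was at 0 in every sum. The parietal endoderm gene list summed to between 4113 and 4562 CPM in early PrE and to between 3327 and 3401 in visceral endoderm. In early PrE its gene Sparc was at 3178 to 3799 CPM, Srgn at 732 to 970 and Plat at 19.4 to 31.7. Srgn was at no more than 12.1 CPM and Plat at no more than 1.87 in epiblast and TE. Thbd was at 0 in 2 of 3 early PrE and 3 of 3 visceral endoderm sums. It was at no more than 0.161 CPM in any state, too low to tell them apart. Type III stands apart in its barcodes, because 154 of its 257 barcodes in a state carry a sequence that is also listed in another library, against 55 in Type I and 26 in Type II. Its early PrE sum also held 38.7 CPM of the 2-cell-like markers and 41.6 CPM of the blood and endothelial markers, where Types I and II held at most 0.192 and 7.31.

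States were compared on UMI counts summed per library and state with edgeR's quasi-likelihood test, with library as a block and Benjamini-Hochberg adjustment over all 14080 genes. A gene is called at an adjusted p under 0.05. The 19 barcodes of Type III visceral endoderm were too few for a sum of 20, so 11 sums were fitted and visceral endoderm has 2 libraries. The comparisons with epiblast share the epiblast sums. Nothing in the labels says that the libraries came from separate cultures, so p-values measure the spread between these libraries, which may be technical.

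Promoter sequences are shown first because both groups of genes are known for shared promoter elements. RefSeq promoter windows of 300 bases on GRCm38.p6, from 250 before to 50 after the start, matched 28 of the 34 members, with 2 windows for Mcm7 and 29 in all. They gave no window for Mcm4, Gins2, Ccne2, Aurkb, Tpx2 and Ccna2. The E2F letters searched on both strands were TTTGGCGC, TTTCGCGC and GCGGGAA, the CHR letters were TTTGAA, and the CCAAT box was CCAAT. E2F letters were present in 7 of 13 S phase windows (those of Mcm3, Mcm5, Mcm6, Mcm7, Rrm1 and Cdc6) and in 1 of 16 G2/M windows (Cdk1), against 5.33% of all 32851 promoters. CHR letters were present in 1 of 13 S phase windows (Mcm2) and in 10 of 16 G2/M windows (Mki67, Top2a, Cdc20, Plk1, Cenpf, Aurka, Ube2c, Kif11, Cdk1 and Hmmr), against 17.9% of all promoters. CCAAT was present in 10 of 13 and 13 of 16 windows, against 37.4%. The 6 windows below show the helicase genes with overlapping E2F letters (Mcm5 and Mcm6), the S phase gene with the largest difference (Ung), mitotic genes with CHR letters (Mki67 and Hmmr) and the member that holds all 3 kinds (Cdk1). All run 5′ to 3′ on the gene's strand, and capitals mark the letters of any of the 3 searches on either strand.
Mcm5: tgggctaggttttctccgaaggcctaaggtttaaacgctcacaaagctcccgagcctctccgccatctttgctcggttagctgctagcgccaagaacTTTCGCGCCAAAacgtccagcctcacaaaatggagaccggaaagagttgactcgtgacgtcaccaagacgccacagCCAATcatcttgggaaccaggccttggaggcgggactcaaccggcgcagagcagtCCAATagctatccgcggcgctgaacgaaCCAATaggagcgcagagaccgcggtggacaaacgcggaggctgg
Mcm6: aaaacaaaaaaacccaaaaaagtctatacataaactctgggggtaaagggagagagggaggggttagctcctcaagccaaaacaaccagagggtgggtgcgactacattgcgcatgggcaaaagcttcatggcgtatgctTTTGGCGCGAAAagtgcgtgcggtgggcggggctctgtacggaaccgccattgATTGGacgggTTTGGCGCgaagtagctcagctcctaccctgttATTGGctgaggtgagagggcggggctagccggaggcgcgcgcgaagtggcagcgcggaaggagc
Ung: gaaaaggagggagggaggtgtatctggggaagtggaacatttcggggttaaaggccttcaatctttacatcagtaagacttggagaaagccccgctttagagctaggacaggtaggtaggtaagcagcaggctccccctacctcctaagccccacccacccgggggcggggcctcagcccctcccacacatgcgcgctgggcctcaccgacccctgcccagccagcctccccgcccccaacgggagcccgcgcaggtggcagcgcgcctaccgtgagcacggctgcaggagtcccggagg
Mki67: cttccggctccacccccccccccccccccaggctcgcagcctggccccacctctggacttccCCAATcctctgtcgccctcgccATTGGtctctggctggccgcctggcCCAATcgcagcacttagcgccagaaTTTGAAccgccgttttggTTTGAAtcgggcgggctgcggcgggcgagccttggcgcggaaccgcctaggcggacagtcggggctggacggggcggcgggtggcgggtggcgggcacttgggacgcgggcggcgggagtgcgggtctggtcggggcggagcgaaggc
Hmmr: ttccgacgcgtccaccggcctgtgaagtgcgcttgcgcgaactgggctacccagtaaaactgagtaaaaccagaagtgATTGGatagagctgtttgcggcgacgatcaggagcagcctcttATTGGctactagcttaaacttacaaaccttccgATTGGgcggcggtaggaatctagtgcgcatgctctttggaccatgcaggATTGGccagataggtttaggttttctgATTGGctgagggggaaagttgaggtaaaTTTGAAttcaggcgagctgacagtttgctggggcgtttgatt
Cdk1: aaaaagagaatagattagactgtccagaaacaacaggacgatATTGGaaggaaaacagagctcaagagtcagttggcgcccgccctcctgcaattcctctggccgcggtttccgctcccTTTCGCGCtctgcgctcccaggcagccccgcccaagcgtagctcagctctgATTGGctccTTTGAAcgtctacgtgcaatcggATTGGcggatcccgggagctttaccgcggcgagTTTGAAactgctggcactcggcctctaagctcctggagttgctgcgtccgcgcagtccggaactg
They lie at chr8:75109259-75109558 on the plus strand (Mcm5), chr1:128359656-128359955 on the minus strand (Mcm6) and chr5:114130185-114130484 on the plus strand (Ung). Those of the mitotic genes lie at chr7:135716330-135716629 (Mki67), chr11:40733388-40733687 (Hmmr) and chr10:69352863-69353162 (Cdk1), all on the minus strand. In Mcm5 and Mcm6 a pair of E2F matches on opposite strands overlaps in 1 run of capitals, which starts 153 bases before the start of Mcm5 and 110 before that of Mcm6. The Cdk1 window has E2F letters 131 bases before the start and CHR letters 71 and 15 before it. No letters of the 3 searches were found in the Ung window. Among S phase members with a window, 4 of 6 with E2F letters were called lower than in epiblast in each of visceral endoderm, early PrE and TE, and 6, 5 and 6 of the 6 without them, beside 36.7%, 34.2% and 31.2% of all genes. Among G2/M members, 2, 7 and 3 of 10 with CHR letters were called higher in these states and 2, 0 and 4 lower. Of the 6 without them, 2, 4 and 2 were called higher and 3, 1 and 4 lower, and 37.5%, 36% and 27.4% of all genes were called higher.

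The S phase members were mostly lower in all 3 differentiating states than in epiblast, with the MCM helicase genes and Ung leading, while the G2/M members were called in both directions. Summed over the 15 S phase members, expression was 1360, 1474 and 1602 CPM in the epiblast of Types I, II and III, and 959, 974 and 969 CPM in early PrE. It was 977 and 940 CPM in the visceral endoderm of Types I and II, and 1308, 1198 and 1317 CPM in TE. The epiblast sums lie above all others, and the endoderm sums lie below all TE sums. The 19 G2/M members summed to 1876, 1853 and 1706 CPM in epiblast, to 2560, 2188 and 2491 CPM in early PrE, to 1985 and 1916 CPM in visceral endoderm, and to 2309, 2079 and 2226 CPM in TE. On this plain CPM scale early PrE and TE lie above epiblast in every library. A lower sum can hold fewer barcodes that express the genes or less RNA in each, which sums cannot tell apart. Immediate early and heat shock genes, which respond to cell dissociation, were fixed as a list of 15 and moved with the states too. They summed to between 3472 and 3523 CPM in epiblast, 2224 and 2459 in early PrE, 2212 and 2329 in visceral endoderm and 4217 and 5150 in TE. Most of each sum is Hsp90aa1, at 2979 to 3011 CPM in epiblast and 1617 to 1789 in early PrE. By gene, 6 of 15 were higher than in epiblast and 5 lower in visceral endoderm, beside 37.5% and 36.7% of all genes. In early PrE 6 and 4 were, beside 36% and 34.2%, and in TE 9 and 1, beside 27.4% and 31.2%. The median log2 fold changes were 0.54, 0.38 and 1.04. The part of these genes in the results was not tested.

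**Figure D1:**
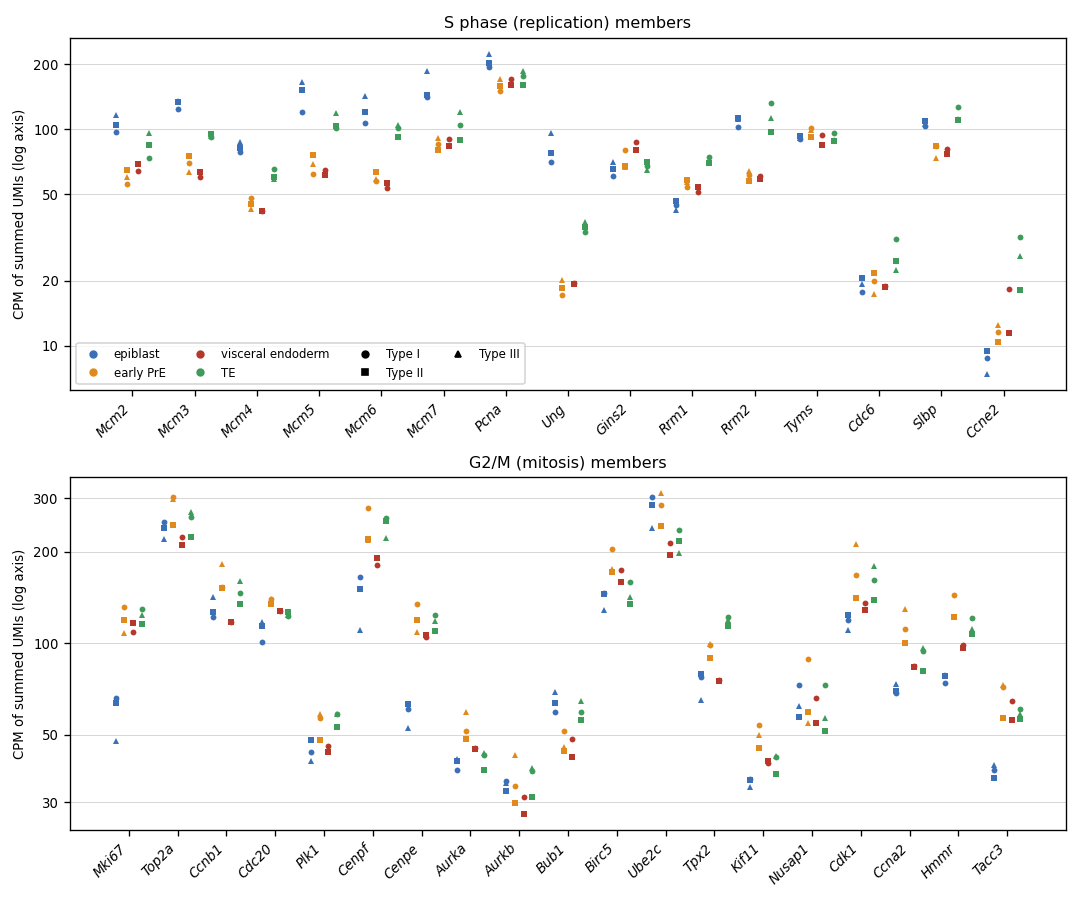
Each point is the CPM (log axis) of 1 member in the UMIs summed over 1 library and state, with colours for the state and shapes for the library, and S phase members above G2/M members. The epiblast points of Mcm2 to Mcm7 and Ung lie above those of every other state, and the epiblast points of Mki67, Cenpe, Hmmr and Tacc3 lie below them.

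In visceral endoderm 11 of 15 S phase members were called lower than in epiblast and 2 higher, where 36.7% and 37.5% of all genes tested were called. The median log2 fold change was -0.75, against 0.01 over all genes, and 6 members were at least 2-fold lower, as were 18.7% of all genes. In early PrE 10 of 15 were called lower and 1 higher, beside 34.2% and 36% of all genes, with a median of -0.94 against 0.03 and with 5 at least 2-fold lower beside 15.7%. In TE 12 were called lower and 2 higher, beside 31.2% and 27.4% of all genes, with a median of -0.58 against -0.03. With plain library totals in place of TMM scaling, 8 were lower and 3 higher in TE, beside 16.8% and 45.8% of all genes in that fit. The median there was -0.24 against 0.30 over all genes. In all 18 fits that were run, 10 members were lower in visceral endoderm (Mcm2 to Mcm7, Pcna, Ung, Rrm2 and Slbp), 10 in early PrE (again these) and 8 in TE (Mcm2 to Mcm7, Pcna and Ung). Scaling moved the TE values most. With plain library totals the median of all genes moved to 0.30 in TE, against 0.16 in visceral endoderm and 0.17 in early PrE, and 73.2% of the called genes were higher in TE, against 46.7% with TMM. The values below are on the TMM scale.

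The 6 Mcm genes, which encode the subunits of the replicative helicase, were lower in all 3 states. Mcm5 was at 120.4, 152 and 166 CPM in the epiblast of Types I, II and III, and at 61.9, 76.3 and 69.2 in early PrE. It was at 64.8 and 61.3 CPM in the visceral endoderm of Types I and II and at 102, 103 and 119 in TE. The epiblast sums do not overlap those of any other state. The log2 fold changes of Mcm5 were -1.28 in visceral endoderm (SE 0.0993, edgeR adjusted p = 1.24e-08), -1.20 in early PrE (SE 0.088, 7.28e-09) and -0.77 in TE (SE 0.0856, 1.66e-06). Mcm6 went from 107, 119.8 and 142 CPM in epiblast to 57.5, 63.4 and 59.2 in early PrE, 53.8 and 56.3 in visceral endoderm, and 102, 92.0 and 105 in TE. Its TE and epiblast levels lie close together in Type I, and no state overlaps with epiblast. Its fold changes were -1.24 in visceral endoderm, -1.15 in early PrE and -0.63 in TE. Mcm2, Mcm3, Mcm4 and Mcm7 fell as well, with values from -1.24 to -0.75 in visceral endoderm, from -1.05 to -0.94 in early PrE, and from -0.92 to -0.66 in TE.

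TE levels of most helicase genes lay between those of epiblast and the endoderm states. In a direct comparison TE was above visceral endoderm for Mcm3 (0.41), Mcm4 (0.37), Mcm5 (0.51) and Mcm6 (0.61), with edgeR adjusted p-values from 1.58e-05 to 0.000784, and above early PrE for these 4 and Mcm2 (from 0.23 to 0.53). Mcm7 was not called in either comparison (-0.03 and 0.08). Over the 15 S phase members, 10 were higher and 2 lower in TE than in visceral endoderm, beside 30.5% and 33.2% of all genes. The counts were the same against early PrE, beside 28.1% and 31.1%. With plain totals the share of higher calls among all genes rose from 47.9% to 60.3% in the first of these comparisons and from 47.5% to 61.6% in the second.

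Ung, a glycosylase that removes uracil from DNA behind the replication fork, differed most among the S phase members. It was at 70.5, 77.7 and 95.7 CPM in the epiblast of Types I, II and III. Levels were 17.2, 18.5 and 20.04 CPM in early PrE, 19.5 and 19.2 in visceral endoderm and 33.5, 35.5 and 37.4 in TE. The 3 groups (epiblast, TE and endoderm) do not overlap. The log2 fold changes were -2.25 in early PrE (SE 0.0838, edgeR adjusted p = 6.98e-14), -2.12 in visceral endoderm (SE 0.0895, 3.28e-13) and -1.51 in TE (SE 0.0777, 2.22e-11), where Ung was the only S phase member at least 2-fold lower, as were 10.8% of all genes. Pcna, the sliding clamp that holds polymerases and repair enzymes on DNA, moved the same way but less. Its epiblast levels of 193, 203 and 224 CPM compare with 150.4, 159 and 172 in early PrE, 171 and 159.7 in visceral endoderm and 177, 160.4 and 187 in TE. These ranges do not overlap with epiblast either, and the log2 fold changes of Pcna were -0.51, -0.41 and -0.58 in early PrE, visceral endoderm and TE.

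Ribonucleotide reductase, which makes the deoxynucleotides for DNA synthesis, split into its subunits. Rrm2, the subunit whose level follows S phase, was at 103, 113 and 111 CPM in epiblast, at 61.3, 57.7 and 64.4 in early PrE, at 60.6 and 58.7 in visceral endoderm, and at 132, 96.7 and 113 in TE. Its log2 fold change was -0.99 in early PrE (SE 0.0931, edgeR adjusted p = 2.14e-07) and -1.01 in visceral endoderm (SE 0.103, 4.81e-07). In TE its levels straddle those of epiblast, and its value of -0.28 (adjusted p = 0.0136) became 0.052 with plain totals and lost its call without Type II and without Type III. The large subunit Rrm1 was not lower in any state. Its levels were 44.9, 46.5 and 42.4 CPM in epiblast, 54.1, 58.5 and 57.2 in early PrE, 51.5 and 54.2 in visceral endoderm, and 74.2, 69.9 and 72.3 in TE. Rrm1 rose by 0.35 in TE (SE 0.0679, edgeR adjusted p = 0.000222), in all 18 fits. The early PrE value of 0.19 (adjusted p = 0.021) lost its call without Type I, without Type II and without Type III, and that of visceral endoderm was 0.08 (0.317). Tyms, which makes thymidylate, was lower in visceral endoderm (-0.19) and TE (-0.35) and at -0.06 in early PrE (edgeR adjusted p = 0.0235, 0.000149 and 0.396). The visceral endoderm call was absent with plain totals, without Type I and without Type II.

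The remaining S phase members act in histone supply, helicase loading and origin firing, and did not move as a block. Slbp, which binds the stem-loop of histone mRNAs, was at 104, 109 and 106 CPM in epiblast, at 83.7, 83.5 and 73.9 in early PrE, and at 80.8 and 77.2 in visceral endoderm. It was lower in both (-0.54 and -0.60), while its TE levels of 126, 110.4 and 111 CPM lie above epiblast on this scale. The TE value was -0.21 with TMM and 0.13 with plain totals, and its call was lost without Type II. Gins2, a subunit of the GINS part of the active helicase, was at 60.6, 65.3 and 70.8 CPM in epiblast and at 87.8 and 80.4 in visceral endoderm. Its value of 0.22 there (edgeR adjusted p = 0.0397) was not called without Type I or without Type II. It was -0.00 in early PrE (adjusted p = 0.965) and -0.28 in TE (0.00875), which became 0.058 with plain totals and lost its call without Type II and without Type III. Cdc6, the helicase loader, was not called in any state, with values of -0.21, -0.09 and 0.12 and levels of 17.4 to 31.0 CPM over the 11 sums.

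Ccne2, a cyclin E gene that activates Cdk2 at the start of S phase, went against the helicase genes in TE. It was at 8.80, 9.42 and 7.40 CPM in the epiblast of Types I, II and III and at 31.9, 18.1 and 25.9 in TE, which do not overlap. It rose by 1.14 in TE (SE 0.172, edgeR adjusted p = 0.000102), in all 18 fits, and was the only S phase member at least 2-fold higher there, as were 10.8% of all genes. Visceral endoderm levels were 18.3 and 11.4 CPM, and the call of 0.57 (adjusted p = 0.0135) was lost without Type I and without Type III. Early PrE levels of 11.6, 10.4 and 12.5 CPM gave 0.19 (0.379).

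**Figure D2:**
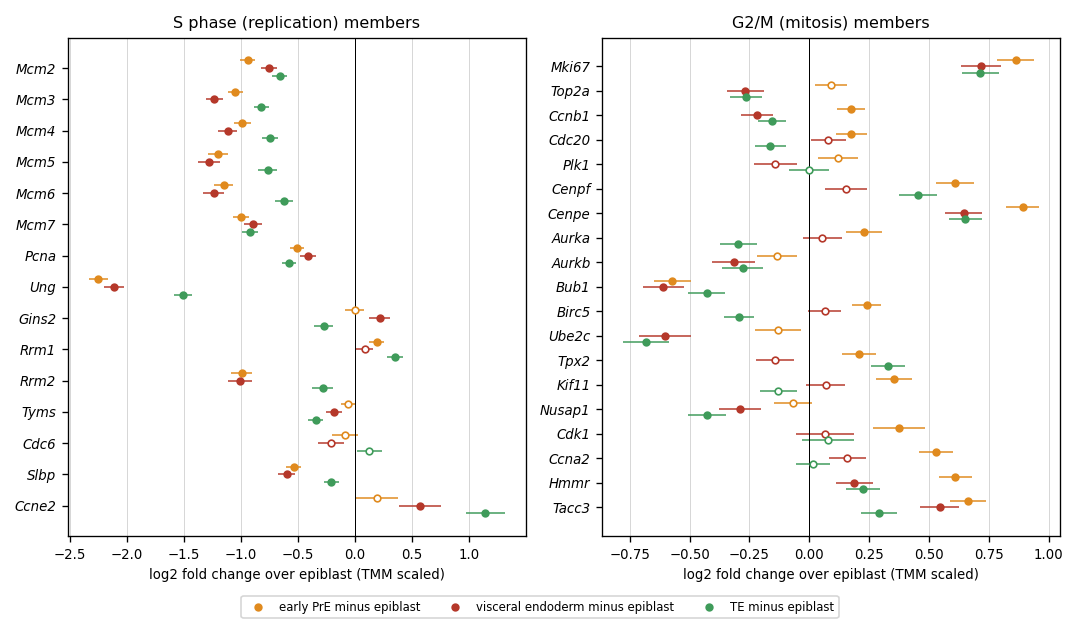
Points are log2 fold changes over epiblast (TMM scaled) for each member in early PrE, visceral endoderm and TE, bars are standard errors, and filled points have an edgeR adjusted p under 0.05. The S phase panel lies mostly left of 0 and the early PrE points of the G2/M panel mostly right of it. With plain totals the TE points move right, and those of Gins2, Rrm2, Slbp, Top2a, Ccnb1, Cdc20, Plk1, Aurka, Aurkb, Birc5 and Kif11 change sign.

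Among the G2/M members, early PrE was the state with most calls above epiblast. There 13 of 19 were called higher and 1 lower, beside 36% and 34.2% of all genes, with a median of 0.23 against 0.03. Mki67, Cenpf, Cenpe, Ccna2, Hmmr and Tacc3 were higher in all 18 fits. The other 7 calls were smaller. With each barcode thinned to 10000 UMIs, so that deep barcodes weigh no more than others, 6 members were higher and 4 lower. In that fit 31% and 29.6% of all genes were called, so the higher count lies near the share of all genes. The median was 0.04 against 0.02 over all genes. Without Type I 7 were higher. In visceral endoderm 4 were higher and 6 lower (median 0.06), beside 37.5% and 36.7% of all genes. These counts became 10 and 2 with plain totals, beside 42.6% and 31.6% of all genes in that fit (median 0.21 against 0.16 over all genes). After thinning they were 4 and 9, beside 34.7% and 33.1%, and the median turned negative, to -0.20 against 0.02 over all genes. The lower ones numbered 2 without Type I and 3 without Type II. In TE 6 were higher and 9 lower (median -0.13), beside 27.4% and 31.2%. They became 12 and 1 with plain totals, beside 45.8% and 16.8% of all genes in that fit. The median there was 0.20 against 0.30 over all genes. Only 3 were lower without Type II. The members called alike under TMM, RLE and plain totals in TE were Mki67, Cenpf, Cenpe, Tpx2, Hmmr and Tacc3 on the higher side and Ube2c on the lower side.

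Mki67 and Top2a are chromosome proteins of proliferating cells. Mki67, which coats mitotic chromosomes, was at 66.2, 63.6 and 47.5 CPM in the epiblast of Types I, II and III. It stood at 131, 119 and 108 CPM in early PrE, 109 and 116 in visceral endoderm, and 129.5, 116 and 124 in TE. The lowest of these is well above the highest epiblast value. Mki67 rose by 0.86 in early PrE (SE 0.0771, edgeR adjusted p = 1.61e-08), by 0.72 in visceral endoderm (SE 0.0838, 4.64e-07) and by 0.71 in TE (SE 0.077, 3.27e-07), in all 18 fits. Top2a, the topoisomerase that untangles sister chromatids, was at 251, 240.4 and 219.7 CPM in epiblast and ranged from 209.7 to 302 over the other sums. Its value was 0.09 in early PrE (not called), -0.27 in visceral endoderm and -0.26 in TE, and the TE value became 0.072 with plain totals. The visceral endoderm call was lost without Type I and without Type II, and the TE call without Type II.

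Of the kinetochore genes Cenpe was higher in all 3 states, Cenpf in early PrE and TE, and Bub1 in none. Cenpe, a kinesin that moves chromosomes to the spindle equator, was at 60.8, 63.2 and 52.6 CPM in epiblast. It was at 135, 119.6 and 109 CPM in early PrE, at 105 and 106 in visceral endoderm, and at 124, 109.8 and 118 in TE, with no overlap with epiblast. The log2 changes were 0.89 in early PrE (SE 0.0691, edgeR adjusted p = 1.78e-09), 0.64 in visceral endoderm (SE 0.0755, 4.06e-07) and 0.65 in TE (SE 0.0691, 2.26e-07), called in all 18 fits. Cenpf, a large kinetochore protein that accumulates in G2, was at 165, 150.5 and 110.3 CPM in epiblast. Its levels were 279, 219.8 and 219 CPM in early PrE, 181 and 190.5 in visceral endoderm, and 259, 252 and 222 in TE. It rose by 0.61 in early PrE (edgeR adjusted p = 3.09e-06) and by 0.45 in TE (0.000102), and its 0.15 in visceral endoderm was not called (0.121). Bub1, a checkpoint kinase that sits at the same kinetochores, did the opposite. It was at 59.2, 63.6 and 68.9 CPM in epiblast, 51.3, 44.2 and 45.6 in early PrE, and 48.5 and 42.1 in visceral endoderm, which do not overlap with epiblast, and it was lower in all 18 fits (-0.57 and -0.61). In TE its levels of 59.6, 56.0 and 64.4 CPM overlap with epiblast, and the value of -0.43 was not called with plain totals.

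Of the spindle genes Hmmr and Tacc3 were called higher in all 3 states, Tpx2 in early PrE and TE, Kif11 in early PrE, and Nusap1 in none. Hmmr, a spindle assembly factor, was at 73.8, 78.1 and 78.4 CPM in epiblast, at 144, 122 and 122 in early PrE, at 98.7 and 96.4 in visceral endoderm and at 121, 107 and 111 in TE. Every other sum lies above epiblast. Hmmr rose by 0.61 in early PrE (SE 0.0692, edgeR adjusted p = 3.05e-07), by 0.19 in visceral endoderm (0.0345) and by 0.22 in TE (0.00981). Its visceral endoderm call was absent without Type I and without Type II, and so was its TE call. Tacc3, which stabilises kinetochore microtubule fibres, was at 38.2, 36.1 and 39.7 CPM in epiblast, 71.8, 56.7 and 72.8 in early PrE, 64.3 and 56.0 in visceral endoderm, and 60.6, 56.3 and 58.3 in TE. It rose by 0.66, 0.54 and 0.29 in the order early PrE, visceral endoderm and TE, and the TE call was lost without Type I and without Type II. Tpx2, which activates Aurora A at the spindle, was highest in TE, at 122, 114 and 119 CPM against 77.5, 79.3 and 64.9 in epiblast. It rose by 0.33 there (SE 0.0708, edgeR adjusted p = 0.000595), in all 18 fits, and by 0.21 in early PrE, a call that was lost without Type I and without Type III. Visceral endoderm was at -0.14 (0.107). Kif11, the motor that separates the spindle poles, rose by 0.35 in early PrE (edgeR adjusted p = 0.00042), with 0.07 in visceral endoderm and -0.13 in TE (0.20 with plain totals). Nusap1, a microtubule bundler, was not called in early PrE (-0.07) and was lower in visceral endoderm (-0.29) and TE (-0.43), and neither of these calls was made with plain totals.

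The genes Ccna2, Cdk1 and Ccnb1, which drive entry into mitosis, were called higher in early PrE, the last 2 not after thinning. Ccna2, cyclin A of S phase and G2, was at 68.3, 69.7 and 73.4 CPM in epiblast and at 111, 100.2 and 130.04 in early PrE, and rose by 0.53 (SE 0.0699, edgeR adjusted p = 2.21e-06). It was not called in visceral endoderm (0.16) or TE (0.02). Cdk1, the mitotic kinase, was at 119, 124 and 110.4 CPM in epiblast and at 168, 141 and 212 in early PrE. It rose by 0.38 (SE 0.109, edgeR adjusted p = 0.0107), a call that was lost without Type I and after thinning. The Type III early PrE sum, with its 2-cell-like and blood markers, has the highest Cdk1 and Ccna2 levels, and the part of those cells in them was not tested. Without Type III both genes were still called higher. Ccnb1, the cyclin partner of Cdk1, was at 122, 126 and 141 CPM in epiblast and at 153, 152 and 183 in early PrE. Its value was 0.17 in early PrE (adjusted p = 0.0137) and -0.22 in visceral endoderm (0.00631), and both calls depended on scaling or weighting: the first became -0.036 after thinning and the second was not called with plain totals. Each was also lost without Type I and without Type II.

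Of the mitotic kinases and exit genes, Ube2c was lower in visceral endoderm and TE in all 18 fits, and the values of Aurka, Aurkb, Birc5, Plk1 and Cdc20 lay between -0.32 and 0.24. Aurka and Birc5 (survivin, of the chromosomal passenger complex) rose by 0.23 and 0.24 in early PrE, and stood at 0.05 and 0.06 in visceral endoderm and at -0.30 and -0.29 in TE. The TE values of both became positive with plain totals (0.037 and 0.043), and neither early PrE call was made without Type I. The TE calls were lost without Type II. Aurkb, the kinase of the same complex, was at -0.13, -0.32 and -0.28 in early PrE, visceral endoderm and TE. Its visceral endoderm call was lost without Type I and without Type II, and its TE call without Type II and with plain totals (0.056). Plk1, a kinase of mitotic entry, was not called in any of them (0.12, -0.14 and -0.00). Cdc20, which activates the anaphase-promoting complex, was at 101, 114 and 117 CPM in epiblast and at 139.9, 134 and 139.6 in early PrE, with a fold change of 0.18 (edgeR adjusted p = 0.0207), whose call was lost without Type I and without Type II. Ube2c, the ubiquitin-conjugating enzyme of the same complex, was at 303, 284 and 240.2 CPM in epiblast, at 213 and 196 in visceral endoderm, and at 235, 217 and 198 in TE. Its log2 fold change was -0.60 in visceral endoderm (SE 0.109, edgeR adjusted p = 0.000313) and -0.68 in TE (SE 0.0956, 6.68e-05), called in all 18 fits. In early PrE it was at 285, 243 and 311 CPM and was not called (-0.13).

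Visceral endoderm and early PrE, both endoderm states, did not differ in their S phase members by this test. The names follow the marker rule, and no order in time between these states was measured. None of 15 was called, beside 10.7% of all genes higher and 9.64% lower, with 2 higher and 1 lower at an unadjusted p under 0.05 and none called by DESeq2. Their fold changes ran from -0.19 (Mcm3) to 0.38 (Ccne2), with standard errors of 0.0704 to 0.188. Among the G2/M members 9 of 19 were lower in visceral endoderm and none higher (13 lower and none higher at an unadjusted p under 0.05, and 7 lower and none higher by DESeq2), with a median of -0.26 against -0.01 over all genes. These were Ube2c (-0.47), Cenpf (-0.46), Hmmr (-0.42), Ccnb1 (-0.39), Ccna2 (-0.37), Top2a (-0.36), Tpx2 (-0.35), Kif11 (-0.28) and Cenpe (-0.25). Only Ccnb1 was called without Type I and only Cenpf without Type II, each of which leaves visceral endoderm with 1 sum that is assumed to vary like the others. Ccnb1 was at 153 and 152 CPM in the early PrE of Types I and II and at 117 and 118 in their visceral endoderm. Hmmr was at 144 and 122 against 98.7 and 96.4, so both genes are higher in early PrE in each of these libraries. After thinning 7 members were lower and none higher, beside 7.43% and 8.44% of all genes in that fit. There Hmmr, Cenpe, Kif11 and Ccna2 lost their calls, and Birc5 and Cdk1 gained one. Only Ccnb1 was called in all 15 fits that kept every library. TE was below early PrE for 13 of the 19 G2/M members and above it for none, beside 31.1% and 28.1% of all genes, led by Ube2c (-0.55), Birc5 (-0.53) and Aurka (-0.52). DESeq2 gave the same counts. This comparison depends on scaling, since with plain totals the share of higher calls among all genes rose from 47.5% to 61.6%. The members were not counted under plain totals here.

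Other genes of the same pathways, from lists chosen alongside the members, were counted in the same way. Of 40 further replication genes 36 were lower in visceral endoderm, 33 in early PrE and 28 in TE, beside 36.7%, 34.2% and 31.2% of all genes. In TE 2 were higher and in the endoderm states none, beside 27.4%, 37.5% and 36%, and the medians were -0.83, -0.80 and -0.41. The largest differences included Hells, a chromatin remodeller of replicating DNA (-1.82 in visceral endoderm, -1.70 in early PrE and -1.10 in TE), and Pold1, the catalytic subunit of polymerase delta (-1.65 and -1.46 in the endoderm states). The origin gene Orc2 (-1.47) in visceral endoderm, the GINS gene Gins1 (-1.37) in early PrE and the clamp loader gene Rfc5 (-1.18) in TE came next. Rfc4 (0.28) and Clspn (0.30), a checkpoint mediator, were the ones higher in TE. The 43 further mitosis genes had 7 higher and 23 lower in visceral endoderm, 12 and 11 in early PrE, and 10 and 11 in TE, with medians of -0.24, -0.03 and 0.02. Beside 36% and 34.2% of all genes in early PrE and 27.4% and 31.2% in TE, these counts do not exceed the background, and in visceral endoderm the lower ones do (36.7%). Kif23, a kinesin of the central spindle, was higher in all 3 (0.55, 0.86 and 0.52), as was Smc4 of condensin in TE (0.64), while Mad2l1, a checkpoint gene, was lower in the endoderm states (-0.88 and -0.71). Visceral endoderm against early PrE gave 1 higher and 13 lower, beside 10.7% and 9.64% of all genes, led by Incenp (-0.43), the scaffold of the chromosomal passenger complex.

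Of 22 genes for the factors that control both programs, 2 were higher and 13 lower in visceral endoderm, 4 and 13 in early PrE, and 4 and 8 in TE. The medians were -0.29, -0.38 and -0.01. The TE counts lie near the 27.4% and 31.2% of all genes, while the lower ones in the endoderm states exceed 36.7% and 34.2%. Lin54, the DNA-binding subunit of MuvB, was at a mean of 6.57 CPM in epiblast, 23.3 in visceral endoderm, 23.1 in early PrE and 18.1 in TE, with fold changes of 1.65, 1.58 and 1.01. Foxm1, its partner in mitotic transcription, went from 14.4 to 22.1, 22.3 and 24.9 CPM (0.50, 0.49 and 0.43). Mybl2, which encodes B-Myb, the other partner, went from 141 to 47.9, 69.5 and 64.8 CPM (-1.59, -1.15 and -1.47). Fbxo5, an inhibitor of the anaphase-promoting complex, was lower in visceral endoderm (-1.17), and E2f1 was lower in TE (-0.90).

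Within a library and state, single barcodes were compared after thinning each to 10000 UMIs. A barcode had at least 10 S phase UMIs in 70.1%, 72.9% and 81.8% of the epiblast of Types I, II and III, and in 44.3%, 43.1% and 40% of early PrE. The shares were 47.9% and 40.7% in the visceral endoderm of Types I and II and 63.9%, 58.6% and 61.1% in TE. The exact 95% binomial intervals of epiblast and endoderm do not overlap in any library (65.0% to 74.8% against 38.3% to 50.4% for early PrE in Type I), and such intervals cover counting error only. Without thinning the shares ran from 88.8% to 99.2%. For the G2/M members the shares with at least 10 UMIs overlapped between epiblast (61.3%, 66.7% and 63.6%), early PrE (63.1%, 56.1% and 64.4%) and TE (69.2%, 58.3% and 68.1%). The visceral endoderm shares of 56.0% and 54.0% lay below all of these. In Type II the epiblast interval (62.7% to 70.5%) lies above those of visceral endoderm (49.8% to 58.2%) and early PrE (50.9% to 61.2%). In Types I and III the epiblast interval overlaps with those of the other states. Unthinned shares were 74.6% to 93.1%. The upper end differed more. Barcodes with at least 40 G2/M UMIs made up 11.1%, 9.45% and 8.26% of epiblast, 21.4%, 16.8% and 17.8% of early PrE, 12.4% of visceral endoderm in each of Types I and II, and 17.3%, 14.7% and 18.1% of TE. No cell type that should lack these genes was present to measure free RNA, and no cell cycle phases were called.

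**Figure D3:**
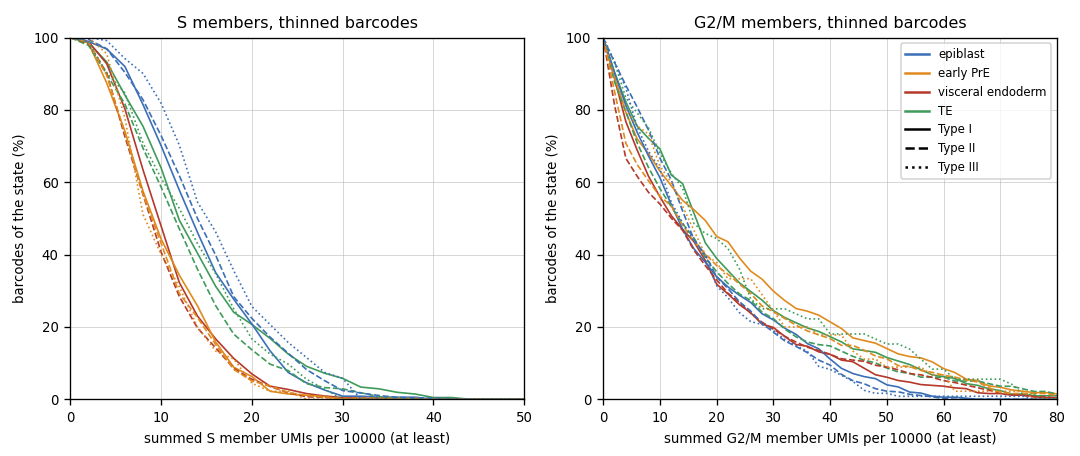
The curves give the share of barcodes (%) with at least the number of S phase (left) or G2/M (right) UMIs on the x axis, out of 10000 UMIs per barcode, for each state (colour) and library (line style). The epiblast S phase curves lie right of the endoderm curves from 5 to 20 UMIs, and the early PrE and TE curves of the G2/M panel lie above epiblast from 40 UMIs on.

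The summed UMIs of the G2/M members varied between barcodes far more than those of the S phase members. The variance of the G2/M sum was 10.3 to 21.2 times the mean, against 2.72 to 5.07 times for the S phase sum. The G2/M sum also had the higher mean, 16.6 to 22.7 UMIs against 9.34 to 15.8. Single members overlapped between the groups. Median ratios of Bub1 (1.28), Tacc3 (1.37), Aurkb (1.39), Kif11 (1.39), Aurka (1.46), Ccna2 (1.62) and Plk1 (1.64) lay within the S phase range of 1.15 (Cdc6) to 1.69 (Rrm2). Cenpf (4.85, median over 11 combinations of library and state), Ube2c (4.65), Top2a (3.57) and Cenpe (2.77) had the highest ratios of variance to mean, and counting alone gives a ratio near 1. Across barcodes these genes also rose and fell together. The median Pearson r with the rest of the group was 0.72 for Cenpf, 0.70 for Ube2c and 0.65 for Nusap1, over 10 combinations of at least 50 barcodes. Bub1 (0.33) and Aurkb (0.38) had the weakest ties among G2/M members. Among S phase members Rrm2 (0.40), Mcm5 (0.39) and Pcna (0.37) had the highest r. All members but Rrm1 correlated more with their own group than with the other in 10 of 10 combinations, and Rrm1 did so in 9. Barcodes of 1 library share its chemistry and depth profile. Those with at least 20 G2/M UMIs had 0.929 to 1.67 times the median depth of the others before thinning.

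**Figure D4:**
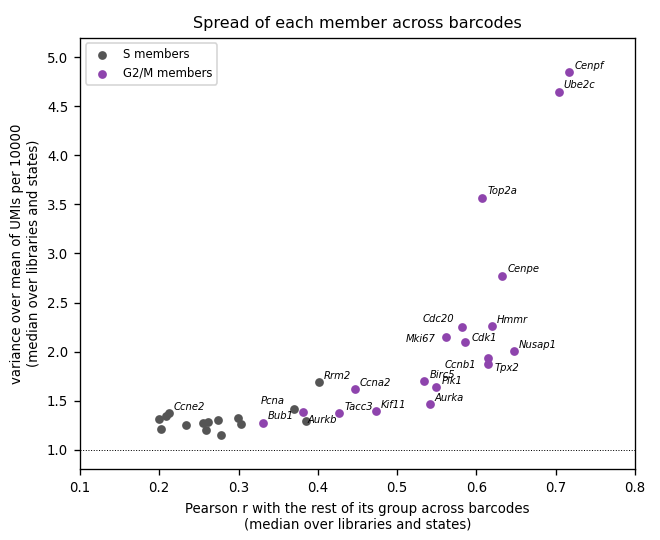
Each point is 1 member, with its Pearson r with the rest of its group across barcodes (x axis) and its ratio of variance to mean of UMIs out of 10000 (y axis), both as medians over libraries and states. G2/M members such as Cenpf and Ube2c sit at the upper right. S phase members have ratios from 1.15 to 1.69, a range that also holds some G2/M members, and the dotted line marks a ratio of 1.

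The S phase and G2/M sums were related by a hump, not a line. Their Pearson r lay between -0.23 and 0.014. In the epiblast of Type II the mean S phase sum was 10.4 ± 6.46 UMIs (SD, n = 94 barcodes) at 0 to 4 G2/M UMIs, 16.6 ± 6.70 (n = 100) at 5 to 9 and 17.0 ± 7.45 (n = 191) at 10 to 19. It came down to 13.4 ± 6.24 (n = 142) at 20 to 39 and 11.0 ± 5.26 (n = 55) at 40 and above. The visceral endoderm of Type II ran through 7.01, 11.6, 12.8, 10.2 and 6.76 over the same ranges, and the TE of Type II through 8.69, 11.6, 15.2, 13.3 and 10.7. Barcodes with intermediate G2/M sums had the most S phase UMIs in each of these. In the early PrE of Type II the sums were 7.69, 11.8, 12.3, 10.3 and 7.24, below epiblast in every range.

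**Figure D5:**
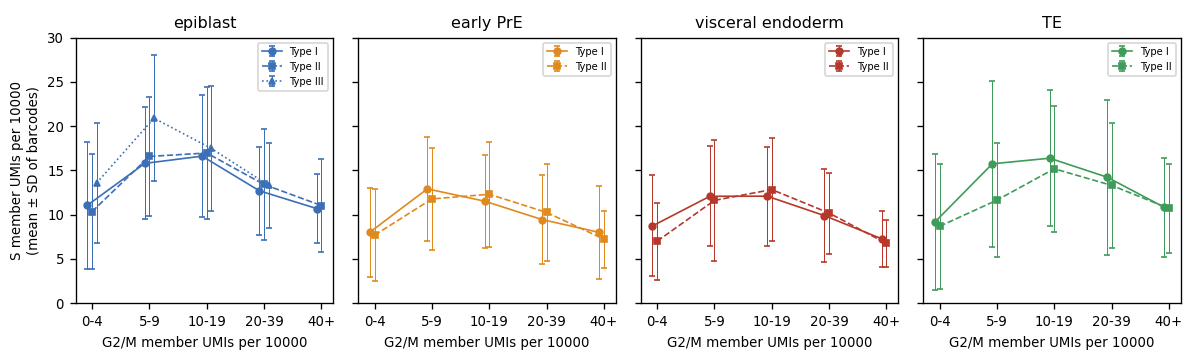
Mean S phase UMIs out of 10000 (y axis, bars are the SD over barcodes) in barcodes grouped by their G2/M UMIs (x axis), for each state and for libraries with enough barcodes. Every line peaks between 5 and 19 G2/M UMIs, and the epiblast lines lie above the endoderm lines in each range.

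Between libraries the members differed little within a state, and with 1 library per type there is no replicate check and no test. At a limit of 1.5-fold, with 20 CPM in 1 of both libraries, no member was apart between Types I and II in epiblast, early PrE or visceral endoderm, and Ccne2 was lower in Type II in TE (18.1 against 31.9 CPM). Of all genes over that level, 0.215%, 0.693%, 0.424% and 1.98% were apart between these libraries in epiblast, early PrE, visceral endoderm and TE. Between Types III and I, Nusap1 was lower in the early PrE of Type III (54.6 against 88.4 CPM) and no other member was apart, beside 2.23% of genes in epiblast, 5.57% in early PrE and 6.88% in TE. Between Types III and II, Cdk1 was higher in the early PrE of Type III (212 against 141 CPM) and no other member was apart, beside 2.03%, 3.61% and 3.25% of genes in the same states. Leaving out barcodes whose sequence is listed in another library raised the number of members apart from 1 to 14 both for Type III against Type I and for Type III against Type II. This filter left Type III with 59 epiblast, 14 early PrE and 25 TE barcodes, so its early PrE fell under the minimum of 20 and dropped out. Its UMIs went from 7427700 to 1758256 in epiblast and from 6227264 to 723496 in TE. The share of all genes apart under this filter was not computed, so the 14 cannot be read as particular to the members. The ratio of the S phase to the G2/M sum in epiblast was 0.725, 0.795 and 0.939 in Types I, II and III, and the other states ran from 0.375 to 0.445 in early PrE, 0.491 to 0.492 in visceral endoderm and 0.566 to 0.592 in TE. Epiblast had the highest ratio in each library.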

How the data were processed

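The authors deposited UMI counts per gene and barcode, 1 matrix of 32285 genes for each of 3 libraries, which the file headers credit to Cell Ranger 6.0.1; the submitters' processing notes name build mm10. Libraries were made with the 10x 3' kit v3.1 after 30 min of digestion, per the labels' protocols. The step that called cells is not given in the sources at hand, and doublets were not removed. The members, lists and state rule were chosen with earlier results of these data known.

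Counts of barcodes with at least 10000 UMIs were summed per library and state, over 1747368 to 27523634 UMIs, and CPM scale these sums to the same total. States were compared with edgeR 4.0.16 in R 4.3.3 (quasi-likelihood, robust, TMM, filterByExpr, library as block, since the states compared come from the same libraries) at 0.05 after Benjamini-Hochberg adjustment over 14080 genes. DESeq2 1.42.0 was an alternative. All members are named, and at most 3 genes per direction of each further list, by size. On simulated counts for visceral endoderm against epiblast the test found 75 of 100 genes changed 1.5-fold and 100 of 100 changed 2-fold. Only those genes were changed there, all over 20 CPM in epiblast and as many up as down. In the data 10444 of the 14080 genes were called in this comparison, so these rates may not hold for it. Between libraries a size rule of 1.5-fold with 20 CPM was used. Thinning drew 10000 UMIs per barcode. Intervals are exact at 95% and cover counting error only.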

Additional observations from a re-analysis of the deposited data

Results flagged for a closer look

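For 4 members the libraries differed in direction, with intervals for counting error that lie on opposite sides of 0 on the plain CPM scale, and these differences were not tested. The log2 ratio of Ube2c in early PrE over epiblast was 0.37 in Type III, -0.086 in Type I and -0.22 in Type II. Ube2c is one of the most variable members across barcodes, and the Type III early PrE sum is the one with 2-cell-like and blood markers, whose part was not tested. The log2 ratio of Rrm2 in TE over epiblast was 0.36 in Type I and -0.23 in Type II. Top2a in TE was at 0.30 in Type III and -0.11 in Type II, and Birc5 in TE was at 0.13 in Type I, 0.14 in Type III and -0.12 in Type II.

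Barcodes outside the 4 states also held the genes. Kept barcodes that met no state rule had summed S phase levels of 1343, 1360 and 1479 CPM in Types I, II and III and G2/M levels of 2167, 1622 and 2243 CPM. Barcodes under 10000 UMIs, which were not used in the comparisons, had S phase levels of 1088, 1058 and 1096 CPM and G2/M levels of 2001, 1691 and 1858 CPM.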

How the results depend on the processing

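The comparisons with epiblast and that of visceral endoderm against early PrE were each run in 18 fits. Of 2312 alternative values for single members, 2011 kept their direction and their call, 179 lost the call and 49 gained one. Another 73 changed sign, 13 of them called in either fit and 60 called in neither. S phase members called lower stayed at 10 to 11 in visceral endoderm, 10 to 11 in early PrE and 8 to 12 in TE. Plain library totals changed 19 signs, of which 8 were called in neither fit. They turned the TE values of Gins2 (0.058), Rrm2 (0.052), Slbp (0.13), Top2a (0.072), Ccnb1 (0.18), Cdc20 (0.17), Plk1 (0.33), Aurka (0.037), Aurkb (0.056), Birc5 (0.043) and Kif11 (0.20) positive. They gave 10 higher and 2 lower G2/M members in visceral endoderm, beside 42.6% and 31.6% of all genes, and 12 and 1 in TE, beside 45.8% and 16.8%. Thinning changed 13 signs, 6 of them in visceral endoderm (values of -0.26 to -0.12) and 4 in early PrE (-0.19 to -0.036). Of these Cdk1 in visceral endoderm (-0.26) and Ccnb1 in early PrE (-0.036) were called in either fit, and the cause was not tested. The number of S phase members higher in visceral endoderm, 2, became 1 with RLE scaling, DESeq2, a 20000 UMI minimum, without barcodes that also pass the Pou5f1 limit, with doubled state limits, without the library block and with the Type III visceral endoderm sum, an alternative chosen after seeing the data. It became 0 after thinning and 0 to 1 when a library was left out. The 1 in early PrE became 0 with RLE scaling, DESeq2, thinning, without Pou5f1-passing barcodes, without the deepest 5% of barcodes, without the library block, without shared barcodes (also chosen after seeing the data) and when any library was left out. G2/M members higher in early PrE numbered 6 after thinning, beside 31% of all genes in that fit, and 7 to 12 with a library left out. Those lower numbered 4 after thinning, 3 without Pou5f1-passing barcodes, 2 with doubled limits, 3 without shared barcodes and 1 to 3 with a library left out. In visceral endoderm 2 to 8 G2/M members were lower with a library left out, and in TE 3 to 8, and 5 without the library block. For visceral endoderm against early PrE, 1 S phase member was higher without the filter on low counts and 1 without the deepest barcodes, and 0 to 1 was lower with a library left out. The 9 lower G2/M members became 5 without Pou5f1-passing barcodes, 5 without the library block and 1 to 11 with a library left out. The states compared come from the same libraries, so the library was the replicate block, and the counts without that block are given above. Types have 1 library each and cannot be paired. Members apart between libraries, 1 in each pair, numbered 0 in every pair at 2-fold. Type II against Type I gave 2 after thinning. Type III against Type I gave 11 after thinning, 4 at a 5000 UMI minimum, 7 without Pou5f1-passing barcodes, 2 without the deepest barcodes and 14 without shared barcodes. Type III against Type II gave 9, 4 and 14 under thinning, without Pou5f1-passing and without shared barcodes, 0 at 20000 UMIs and 2 with doubled limits. Thinned sums and Type III sums hold the fewest UMIs, which limits their precision. The shares of all genes apart between libraries were not computed under these alternatives.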
